A study of Homo sapiens with 9 samples.

Results

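The cytoplasmic ribosomal protein genes are described here across cultured glioblastoma cells from hyaluronic acid gel devices. They were taken as the protein-coding genes named RPL or RPS with a number (and at most 1 letter A, X or L), the stalk genes RPLP0, RPLP1 and RPLP2, and RPSA, with chromosome Y left out. The rule found 81 genes of 58735 in the deposited table, 49 of the large and 32 of the small ribosomal subunit. It leaves out the ribosomal proteins with other names, among them FAU and RACK1, which are given apart.

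All libraries came from GBM43, a human glioblastoma cell line, grown in serum-containing medium and seeded into 3D invasion devices. The series asks what glutamate acting on NMDA receptors contributes to invasion. The core group (3 libraries) is RNA from the cells of control devices that had not invaded, and the invasive group (3 libraries) is RNA from the cells of control devices that had, separated by scalpel. The MK801 group (3 libraries) is RNA from whole devices given 50 µM MK801, a blocker of the NMDA receptor channel, with core and invasive cells pooled because few cells had invaded. The sample labels give DMSO, and the series' design text culture medium, as what control devices received. Every comparison with MK801 therefore sets a mixture of both fractions against a single fraction. All groups share the line, so the data hold 1 cell line. The labels do not say whether replicate libraries were separate cultures, so every p-value is relative to a spread between libraries that could be technical.

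The ribosome is built from a large subunit, which forms peptide bonds, and a small subunit, which decodes the mRNA. Each assembled ribosome carries nearly all of these proteins in equal copy number, so their mRNAs are usually abundant and produced in balanced amounts. Many of these mRNAs begin with a 5′ terminal oligopyrimidine (TOP) tract, a C followed by further pyrimidines, through which the mTORC1 kinase and the RNA-binding protein LARP1 control their translation and stability. Growing tumour cells depend on ribosome supply, and some members also act outside the ribosome, such as RPL5 and RPL11, which bind the p53 regulator MDM2 when ribosome assembly fails.

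Libraries held 15.6 to 54.4 M fragments assigned to genes (M for 1e6). At equal depth, 20322 to 21414 genes were detected in core libraries, 15975 to 19140 in invasive libraries, and 15161, 19031 and 21517 in MK801 libraries 1, 2 and 3. The GC content of the genes' main annotated transcripts, averaged with each library's fragments as weights, ran the other way. It was 49.7 to 51.0% for the core, 52.7 to 54.5% for the invasive, and 54.3, 53.1 and 50.4% for the MK801 libraries. This GC content depends on which genes were counted, and the GC of the sequenced bases was not measured. Invasive library 2 and MK801 library 1 had the fewest genes and the highest GC content of their groups, and MK801 library 3, the deepest, lay furthest from its group on GC content, within the core range. Of 15 glioma and neural stem markers, 5 were at or above 1 FPKM (fragments per kilobase of gene length per 1e6 fragments) in every library, among them CD44, and CHI3L1, OLIG1 and OLIG2 were at 0 in all. The summed level of 10 fibroblast and pericyte markers, led by COL1A1 and COL1A2, was 75.1 to 151 FPKM in the core, 358 to 628 in the invasive and 86.4 to 202 in the MK801 libraries. RGS5 and PDGFRA of this list had lower means in invasive than in core libraries (0.099 against 0.505 and 2.99 against 3.86 FPKM). The other markers of the list had higher means in invasive libraries. The part of these differences in the results on ribosomal protein genes was not tested, except where values after removal of the GC trend are given.

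Ribosomal protein mRNAs were among the most abundant in every library. The mean FPKM over the 9 libraries was 322 for the median member, and 62 of 81 members were above 100 FPKM. RPL13A, RPL8, RPS18 and RPS2 were among the 5 highest. RPL8, a protein close to the catalytic centre of the large subunit, measured 947, 1419 and 731 FPKM in the core, 1463, 2864 and 1215 in the invasive and 3180, 1767 and 893 in the MK801 libraries. RPL8 was highest in MK801 library 1 and lowest in core library 3, and its groups overlapped. RPL13A, a large subunit protein that can also be released to repress translation after interferon gamma, measured 1198, 1602 and 1051 FPKM in the core, 1426, 1744 and 1236 in the invasive and 3111, 1919 and 1230 in the MK801 libraries, with its highest value in MK801 library 1.

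At the other end, 7 members were under 10 FPKM on average. RPL10L, a testis-type copy of RPL10, had 0 fragments in all 9 libraries, which allows up to 0.261 FPKM in the library with the weakest limit (3 fragments, counting error only). RPL3L, a muscle-type copy of RPL3, was listed at 0 in 3 libraries and reached at most 0.260 FPKM. RPS10 was at most 1.32 FPKM. These 3 were the members that did not reach 1 FPKM in at least 3 libraries, which leaves 78 of 81 members tested (47 large, 31 small) among 11845 genes. The low values of RPS10, RPL36A (mean 1.36 FPKM) and RPL17 need care: 77.0%, 77.6% and 83.8% of the bases of their main annotated transcripts also lie in exons of another gene of the annotation, and the counting of such fragments is not known. The gene length used by the authors also exceeded the main transcript 14.5 times for RPS29, 12.4 times for RPS24 and 9.24 times for RPL36A, which lowers the FPKM of these genes relative to other members. Ribosomal protein genes have many near-identical processed pseudogenes, between which fragments may have been divided.

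The first transcribed bases of members are shown because the TOP tract is the sequence feature by which this gene family is known. Of the 81 members, 64 had an entry in the RefSeq promoter table (GRCh38.p14). A tract of a C at the annotated start followed by at least 4 pyrimidines, read on the transcript's own strand only, was present in 46 of these 64 (71.9%), against 5.14% of the 27305 genes in that table and 7.40% of 8174 other tested protein-coding genes. The share was 71.8% for large and 72.0% for small subunit members. Letting the tract begin within 5 bases of the start gave 82.8% of members and 25.2% of all genes. Each line holds 10 bases before and 20 bases from the annotated start, and capitals mark the unbroken pyrimidines from the start where they begin with C. The first 4 are members with low coding GC (RPS24, RPL31, RPS6 and RPL39), the next 5 are members with middle or high coding GC (RPS27, RPSA, RPL28, RPS9 and RPLP0), and the last 3 have no such tract of the required length (RPL3, RPS27L and RPL10L).
RPS24 (chr10:78033853-78033882, + strand): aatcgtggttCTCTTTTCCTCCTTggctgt
RPL31 (chr2:101002279-101002308, + strand): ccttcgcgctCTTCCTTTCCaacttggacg
RPS6 (chr9:19380217-19380246, - strand): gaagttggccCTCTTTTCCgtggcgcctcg
RPL39 (chrX:119791611-119791640, - strand): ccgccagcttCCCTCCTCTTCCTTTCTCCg
RPS27 (chr1:153990752-153990781, + strand): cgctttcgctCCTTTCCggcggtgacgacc
RPSA (chr3:39406710-39406739, + strand): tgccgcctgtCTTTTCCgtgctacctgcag
RPL28 (chr19:55385922-55385951, + strand): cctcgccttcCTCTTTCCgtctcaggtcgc
RPS9 (chr19:54200848-54200877, + strand): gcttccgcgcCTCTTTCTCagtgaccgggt
RPLP0 (chr12:120201092-120201121, - strand): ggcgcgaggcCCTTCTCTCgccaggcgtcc
RPL3 (chr22:39319604-39319633, - strand): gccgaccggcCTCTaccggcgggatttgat
RPS27L (chr15:63157458-63157487, - strand): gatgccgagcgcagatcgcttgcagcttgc
RPL10L (chr14:46651762-46651791, - strand): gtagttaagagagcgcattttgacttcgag

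These windows show pyrimidine tracts in members that were low and in members that were high in the invasive libraries. RPS27 carries a tract of 7 pyrimidines where its paralog RPS27L, a p53 target, has none. In RPL3, which reaches toward the catalytic centre of the large subunit, the run at this annotated start ends after 4 pyrimidines. RPL3 does have a tract of the required length when it may begin within 5 bases of the start, whereas RPS27L and RPL10L do not. Among tested members, the 45 with a tract at the start differed between invasive and core by a median of 0.11 on the log2 scale and the 17 without by 0.16, and the corresponding medians were 0.40 and 0.35 for MK801 against core and 0.22 and 0.25 for MK801 against invasive. A match or its absence describes these letters only.

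Members also shared short transcripts. The median length of the main annotated transcript was 1010 bases, against 2750 over all tested genes, and the median 3′ UTR was 99.5 against 1069 bases. RPL41, which encodes the smallest ribosomal protein, has a coding sequence of 75 bases. The GC content of the coding sequence ranged from 42.1 to 63.0% over members, with a median of 51.0%, close to the 52.2% of all tested protein-coding genes. Members lay on 21 chromosomes, and 12 of 81 lay on chromosome 19, whose tested members had a median coding GC of 59.6%.

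As a whole, the ribosomal protein mRNAs took a similar share of the transcriptome in the 3 groups. The share of summed FPKM that fell on the 81 members was 10.7, 12.8 and 10.2% in the core, 9.80, 11.2 and 9.52% in the invasive and 13.1, 10.7 and 11.1% in the MK801 libraries. The mean was 11.2 ± 1.4% in the core, 10.2 ± 0.92% in the invasive and 11.6 ± 1.29% in the MK801 libraries (SD, n = 3), and the groups overlapped. Core library 2 and MK801 library 1 held the highest shares. In RNA from whole fractions, fewer cells with high ribosomal protein expression and less of these mRNAs per cell cannot be told apart.

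Large and small subunit genes kept similar proportions in the 3 groups. Large subunit members took 6.22 ± 0.78% of summed FPKM in the core, 5.71 ± 0.61% in the invasive and 6.48 ± 0.76% in the MK801 libraries, and small subunit members 5.02 ± 0.62%, 4.48 ± 0.31% and 5.16 ± 0.54% (SD, n = 3). The ratio of summed large to summed small subunit FPKM was 1.242, 1.240 and 1.235 in core libraries, 1.253, 1.326 and 1.235 in invasive libraries and 1.273, 1.247 and 1.245 in MK801 libraries. Invasive library 2 had the highest ratio, and this value rested on RPL8. Without RPL8 the ratio was 1.149 to 1.165 in the core, 1.136 to 1.171 in the invasive and 1.137 to 1.168 in the MK801 libraries. On the log2(FPKM + 1) scale, the median large subunit member lay below the median small subunit member in all 9 libraries, and the difference was -0.35 ± 0.12 in the core, -0.39 ± 0.24 in the invasive and -0.34 ± 0.26 in the MK801 libraries (SD, n = 3). The difference between groups in this gap was -0.05 for invasive minus core, 0.01 for MK801 minus core and 0.06 for MK801 minus invasive, each smaller than the spread between libraries of 1 group.

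**Figure D1:**
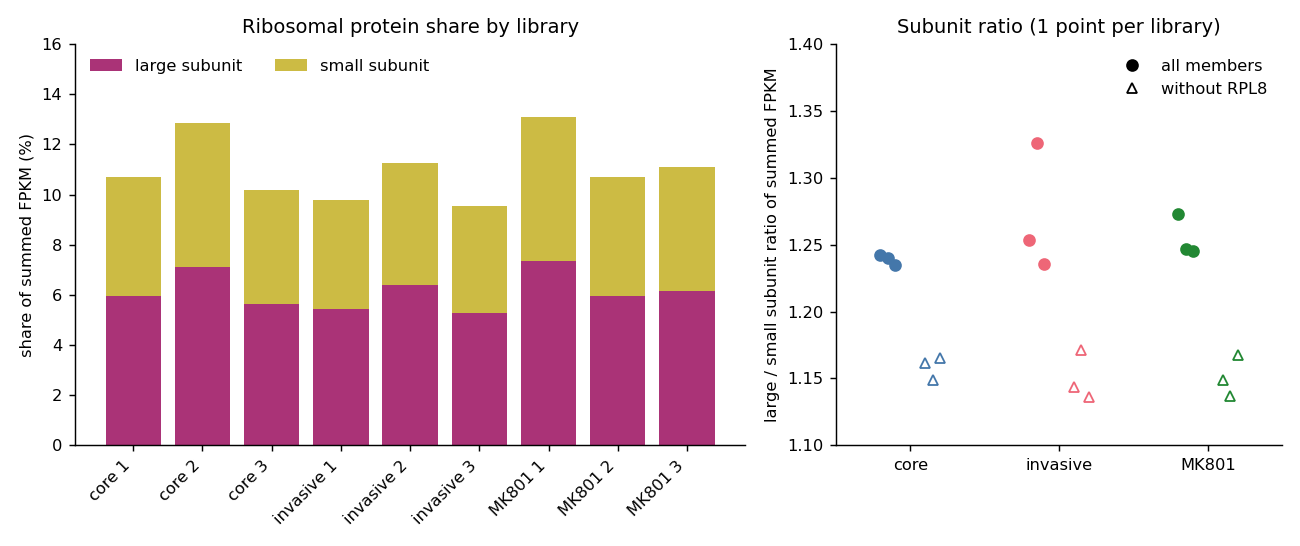
Left, the share of each library's summed FPKM (%) on large and small subunit genes, stacked, for the 9 libraries. Right, the ratio of summed large to small subunit FPKM in each library (axis from 1.1), with all members as circles and without RPL8 as open triangles; the shares of the groups overlap, and the high ratio of invasive library 2 (1.326) falls to 1.171 without RPL8.

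The balance within the family differed between libraries. The standard deviation of log2 levels among the 78 tested members was 1.77 to 1.89 in core libraries, 2.00 to 2.33 in invasive libraries, and 2.46, 2.12 and 1.83 in MK801 libraries. From core to invasive libraries, the mean share of members with low or middle coding GC was lower and that of members with high coding GC higher. The 26 tested members with the lowest coding GC (42.1 to 47.5%) took 2.25 ± 0.20% of summed FPKM in core and 1.28 ± 0.20% in invasive libraries, with ranges of 2.09 to 2.47% and 1.04 to 1.404% that did not overlap. In MK801 libraries they took 1.30, 1.44 and 2.13%, so that library 3 lay within the core range and the other two near the invasive range. The 26 with the highest coding GC (54.0 to 63.0%) took 5.03 ± 0.83% in the core, 5.68 ± 1.07% in the invasive and 6.27 ± 1.48% in the MK801 libraries, with overlapping ranges. The 26 of middle coding GC (47.9 to 53.8%) took 3.70 to 4.43% in core and 3.19 to 3.29% in invasive libraries, without overlap. In MK801 libraries they took 3.45 to 3.90%.

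**Figure D2:**
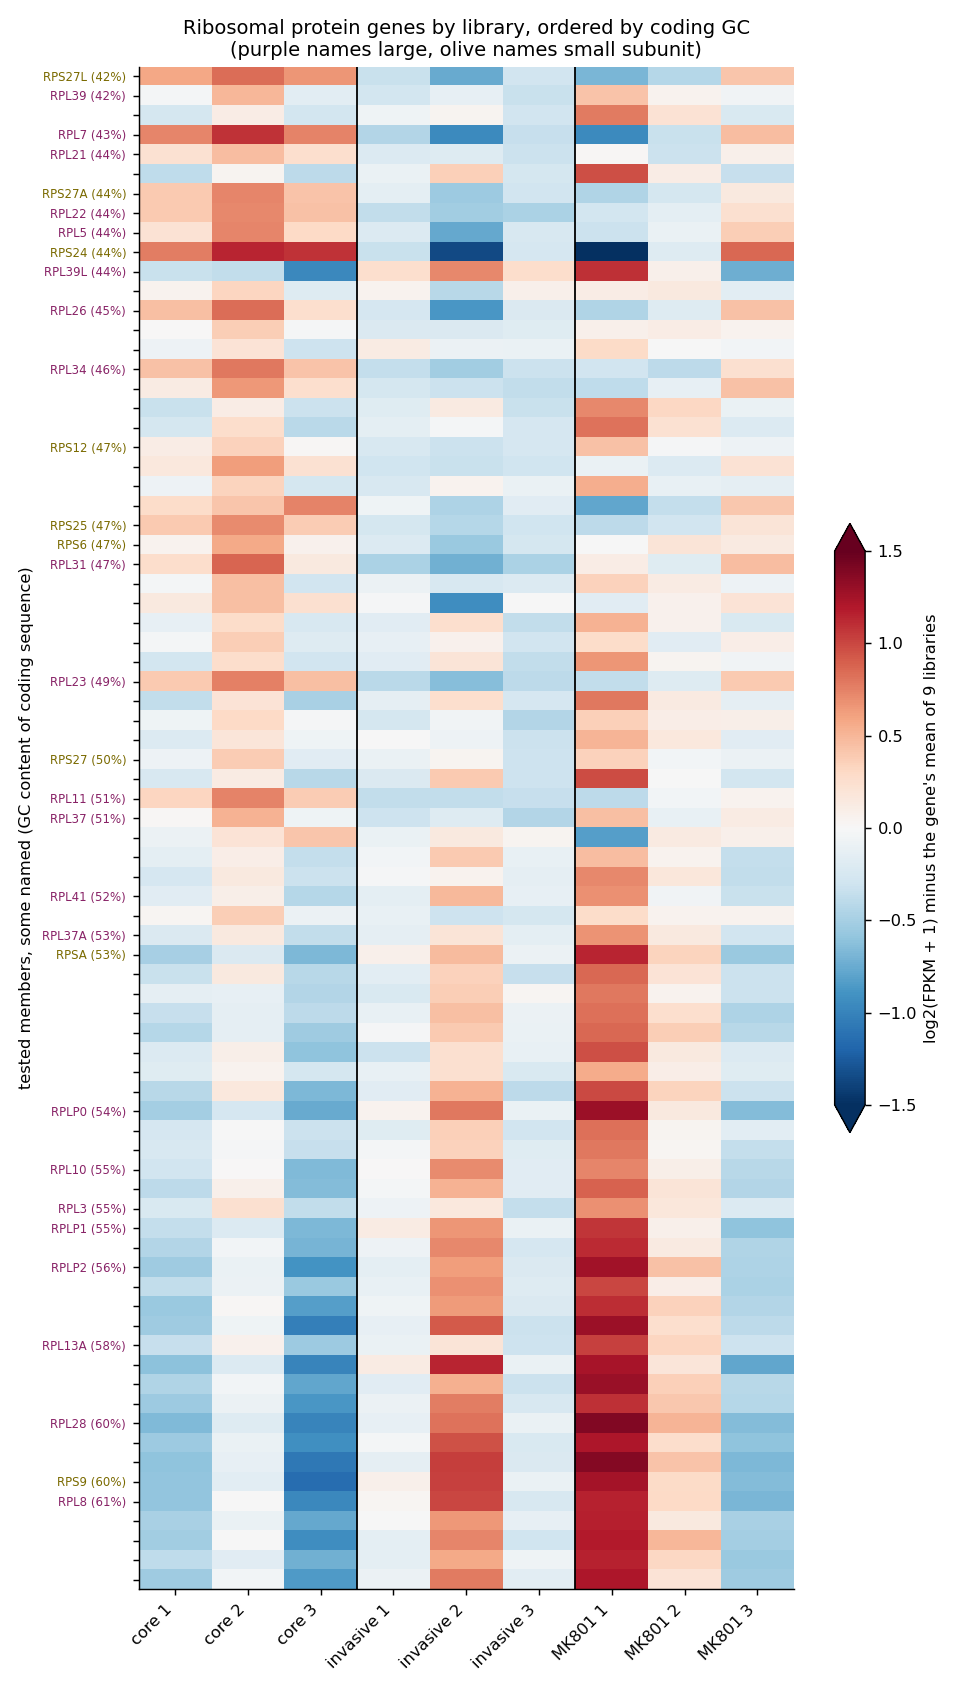
Level of each of the 78 tested members in each of the 9 libraries, as log2(FPKM + 1) minus the gene's own mean over the 9 libraries (colour scale from -1.5 to 1.5), with members ordered by the GC content of their coding sequence. Red members at the top (low GC) are mostly in core libraries and MK801 library 3, and red members at the bottom (high GC) are in invasive library 2 and MK801 library 1.

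Invasive cells, compared with core cells, had less mRNA of a set of members that included RPS24, RPL7, RPS27L, RPL31, RPL34 and RPL11, and more of others such as RPS9 and RPL39L, but none of these differences passed the test in the fit of all 9 libraries. Differences here and in the other comparisons are of group means of log2(FPKM + 1), which understates the change of low genes, with gene coordinates on GRCh38. RPS24 (ENSG00000138326, chr10:78033732-78056813), a small subunit protein mutated in some cases of Diamond-Blackfan anaemia, measured 57.4, 74.7 and 71.8 FPKM in the core, 26.2, 12.5 and 27.8 in the invasive and 9.42, 29.04 and 61.5 in the MK801 libraries. All invasive values were below all core values, and MK801 library 3 lay with the core. The mean was 3.07-fold lower in invasive than in core cells (log2 difference -1.64 ± 0.55 (SE), adjusted p = 0.106 in limma). RPL7, an RNA-binding protein of the large subunit, measured 332, 422 and 332 FPKM in the core, 146, 102 and 156 in the invasive and 102, 157 and 275 in the MK801 libraries. The core and invasive values did not overlap (log2 difference -1.43 ± 0.36 (SE), adjusted p = 0.096 in limma). RPS27L measured 8.79, 10.6 and 9.31 FPKM in the core, 4.18, 2.87 and 4.33 in the invasive and 3.06, 3.86 and 7.71 in the MK801 libraries, with core libraries again above all invasive libraries (log2 difference -1.15 ± 0.29 (SE), adjusted p = 0.096 in limma; -0.71 after removal of the GC trend). RPL31 (ENSG00000071082, chr2:101001715-101024032), which sits near the exit of the peptide tunnel, measured 118, 181 and 109 FPKM in the core, 70.4, 59.0 and 70.1 in the invasive and 106, 86.5 and 136 in the MK801 libraries, with no overlap between core and invasive cells (log2 difference -0.99 ± 0.27 (SE), adjusted p = 0.103 in limma). In the annotation, 28.4% of RPL31's main transcript overlaps another gene.

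RPL5 and RPL11 form a complex with the 5S ribosomal RNA, and both were lower in invasive cells without overlap (these genes, and RPL34 and RPL37A, were chosen after their values were seen). RPL11 measured 311, 415 and 325 FPKM in the core, 193, 192 and 195 in the invasive and 189.5, 242 and 258 in the MK801 libraries, and RPL5 measured 315, 451 and 333 FPKM in the core, 234, 159 and 229 in the invasive and 215, 252 and 349 in the MK801 libraries. The log2 difference was -0.84 ± 0.25 (SE) for RPL11 and -0.82 ± 0.29 for RPL5, with adjusted p of 0.106 and 0.109 in limma. RPL34 was 117 ± 17.8 FPKM in the core, 59.5 ± 4.43 in the invasive and 72.4 ± 18.1 in the MK801 libraries (SD, n = 3). RPS27A, made as a fusion with ubiquitin, was 151 ± 20.4, 84.1 ± 11.5 and 93.5 ± 20.9 FPKM, and RPL26, which also binds p53 mRNA, was 36.1 ± 7.83, 18.2 ± 4.48 and 24.3 ± 8.45 FPKM in the same order. RPL26 shares 59.0% of its main transcript with another annotated gene.

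On the other side, RPS9 (ENSG00000170889, chr19:54200742-54249003), a small subunit protein near the mRNA entry, measured 227, 306 and 154 FPKM in the core, 361, 698 and 318 in the invasive and 814, 417 and 218 in the MK801 libraries. Invasive values lay above core values, with invasive library 2 far above the other two (log2 difference 0.97 ± 0.49 (SE), adjusted p = 0.163 in limma). The difference for RPS9 was 0.62 without invasive library 2, 0.59 on the TPM scale (each library rescaled to a sum of 1e6) and 0.34 after removal of the GC trend. RPL39L (ENSG00000163923, chr3:187120948-187180908), a paralog of RPL39 known from testis and from some tumours, measured 26.3, 25.7 and 16.7 FPKM in the core, 40.2, 55.7 and 40.5 in the invasive and 73.1, 35.3 and 19.7 in the MK801 libraries, with all invasive values above all core values (log2 difference 0.97 ± 0.41 (SE), adjusted p = 0.121 in limma; 0.62 on the TPM scale). Its coding GC is 44.4%, and it was the only member among the 26 of low coding GC whose invasive libraries were all above the core libraries. RPL39, the abundant form, measured 383, 552 and 352 FPKM in the core, 324, 359.9 and 312 in the invasive and 528, 406 and 378 in the MK801 libraries. The core and invasive values of RPL39 overlapped, and its log2 difference was -0.34 ± 0.28 (SE), of the opposite sign to RPL39L.

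**Figure D3:**
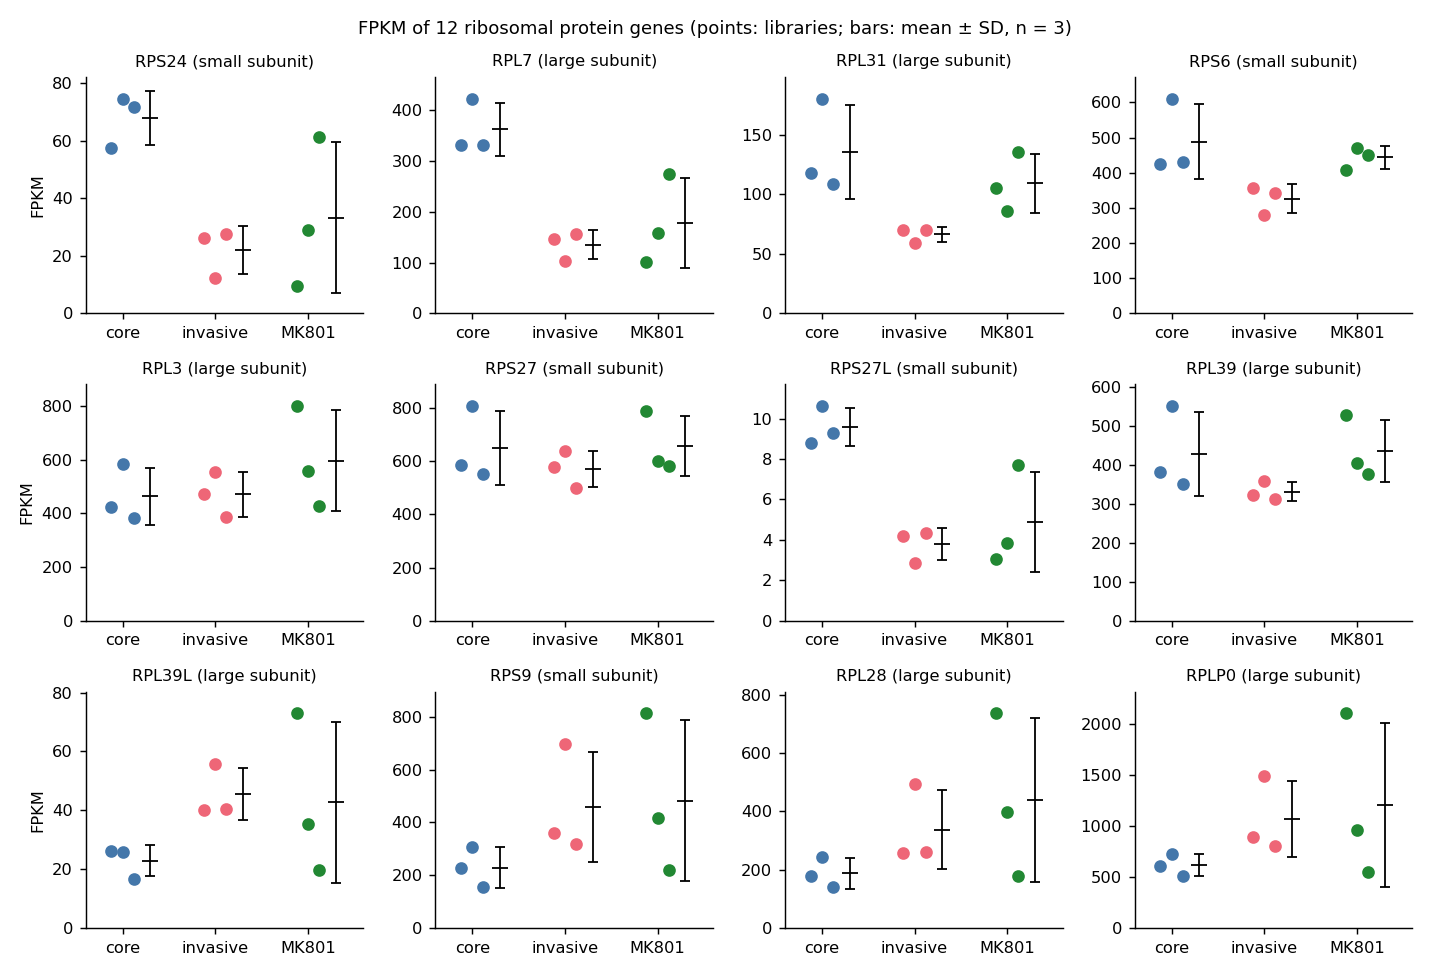
FPKM of 12 members in the 9 libraries (points), with mean ± SD of 3 libraries per group (bars). RPS24, RPL7, RPL31 and RPS27L are lower in all invasive than in all core libraries, RPL39L and RPS9 are higher, and RPL3 overlaps between groups.

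Over the 78 tested members, 44 had a higher and 34 a lower mean in invasive than in core cells, with a median log2 difference of 0.10 (0.11 for large, 0.05 for small subunit members) against -0.02 over all 11845 genes. On the TPM scale, the median of all genes moved to -0.37 and that of members to -0.27, with 24 members higher and 54 lower, so that members lay 0.09 above the median gene, against 0.12 without rescaling. This position turned with 2 other settings. Members lay 0.13 below the median gene when genes under 5 FPKM were left out (0.11 against 0.24) and 0.03 below it without invasive library 2, and 0.01 above it without core library 3. None of 78 members passed an adjusted p of 0.05 in the limma fit of all 9 libraries, where 0% of all genes passed. At an unadjusted p under 0.05 in limma there were 17 of 78 members, against 4461 of 11845 genes. The fit of recovered fragments by limma-voom called 0 members as well. Fitted on the 6 control libraries alone, limma called 19 members (3 higher, 16 lower), or 24.4% of members, against 52.2% of all genes. The higher ones included RPS9 and RPL39L, and the lower ones RPS24, RPL7, RPS27L, RPL23, RPL31, RPL22, RPL26, RPL34, RPL11, RPS27A, RPS25, RPL5, RPL36A, RPL17, RPL6 and RPL21. Of these 19, 15 had low coding GC. Without overlap between the groups, 10 members were higher (12.8%) against 32% of all genes, and 22 were lower (28.2%) against 32.8%.

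The direction of a member's difference was related to its coding GC. Among the 26 members of lowest coding GC, 21 were lower in invasive cells and the median difference was -0.61, and the 5 that were higher were RPL30, RPS3A, RPS13, RPL9 and RPL39L. Among the 26 of highest coding GC, all 26 were higher, with a median of 0.59 (24 of 26 and 0.32 without invasive library 2). On the TPM scale the corresponding medians were -0.99 and 0.22, with 1 and 21 of 26 higher. Other protein-coding genes in the same GC ranges had medians of -0.52 and 0.56. Of the 26 members of middle coding GC, 13 were higher, with a median of 0.04. On the TPM scale 2 of these 26 were higher, with a median of -0.34. Across the 78 members the Spearman correlation of coding GC with the difference was 0.79, and across 10143 other protein-coding genes it was 0.74; these are descriptions over genes that share the same libraries. Each library's trend over the GC content of the whole main transcript, not of the coding sequence, was then removed. The medians became -0.42 for the low-GC and 0.10 for the high-GC members, against -0.03 and 0.11 for other genes. In that scale, limma on the 6 control libraries alone called 9 members against 17.7% of all genes. They were RPS24, RPS25, RPL7, RPL31, RPL11, RPS27L, RPL23 and RPS12, which were lower, and RPL39L, which was higher. The 12 members on chromosome 19 were all higher in invasive cells, with a median of 0.65.

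**Figure D4:**
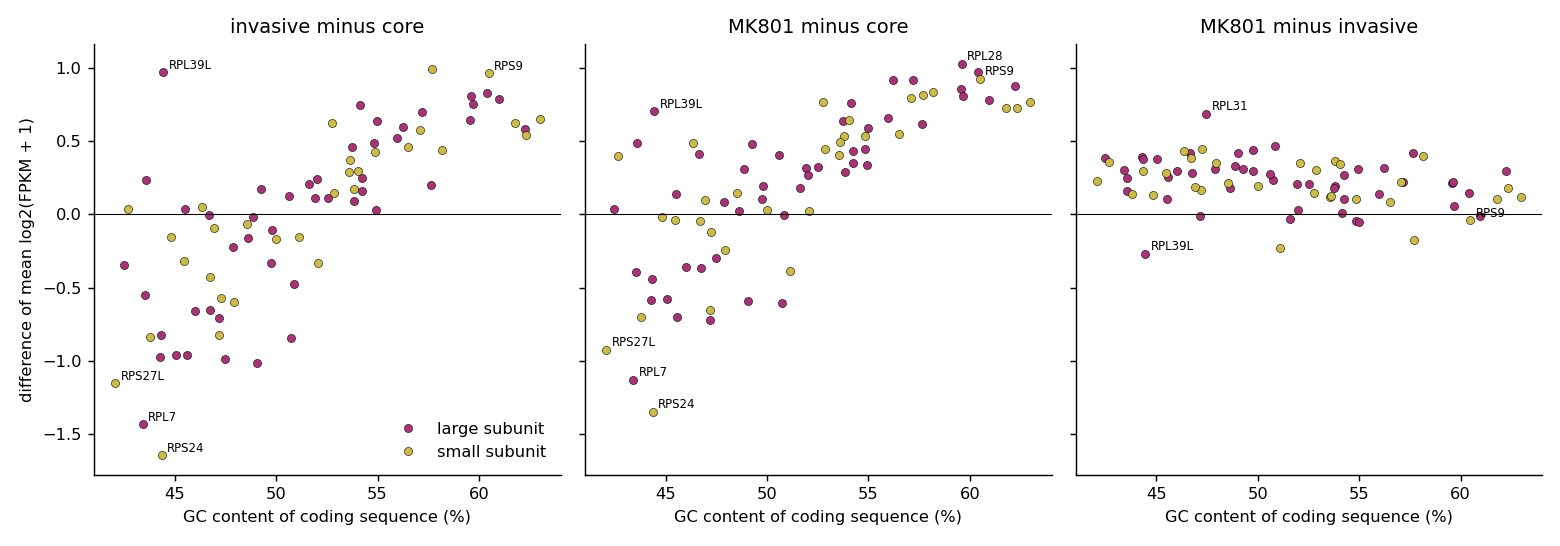
Difference of group means of log2(FPKM + 1) for each of the 78 tested members (vertical axis) against the GC content of its coding sequence in percent (horizontal axis), coloured by subunit, for 3 comparisons. The differences from core run from low-GC members below 0 to high-GC members above 0, with RPL39L apart at the upper left, and the differences between MK801 and invasive libraries lie mostly above 0 at every GC content.

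MK801 devices, compared with core cells, showed higher means for most members and lower means for a smaller set. Means were higher for 55 and lower for 23 of the 78 tested members, and their median log2 difference was 0.33 (0.32 for large, 0.41 for small subunit members) against 0.00 over all genes. RPL28 (ENSG00000108107, chr19:55385345-55403250), a large subunit protein, measured 177, 245 and 140.4 FPKM in the core, 257, 493 and 262 in the invasive and 737, 398 and 178 in the MK801 libraries. MK801 library 1 was far above every other library, and library 3 lay within the core range. The MK801 values overlapped those of both other groups, and all invasive values lay above all core values. For MK801 against core the log2 difference of RPL28 was 1.03 ± 0.49 (SE), with adjusted p = 0.238 in limma. The difference for RPS9 was 0.93 ± 0.49 (SE; adjusted p = 0.252). Without MK801 library 1 these differences were 0.54 for RPL28 and 0.45 for RPS9, and on the TPM scale 0.64 and 0.53. RPS24, RPL7 and RPS27L had the most negative differences, -1.35 ± 0.55, -1.13 ± 0.36 and -0.92 ± 0.29 (SE), each with an adjusted p of 0.235 in limma. Without MK801 library 1 they were -0.66, -0.79 and -0.70, so that the difference of RPS24 was then the least negative of the 3. After removal of the GC trend RPL7 was at -0.74 and RPS27L at -0.55.

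No member passed the test in the 9-library limma fit of MK801 against core, where 0% of all genes passed, nor with both groups alone, where again 0% passed. At an unadjusted p under 0.05 in limma there were 10 of 78 members, against 2509 of 11845 genes, and limma-voom called 0. Without MK801 library 3, limma called 36 members (24 higher, 12 lower), or 46.2% of members, against 50.2% of all genes. Without overlap, 0 members were higher against 9.89% of all genes, and 9 members were lower (11.5%) against 8.82%. These 9 were RPL7, RPS27L, RPL23, RPL22, RPL34, RPL11, RPS27A, RPS25 and RPL21, in a comparison that shares its core libraries with that of invasive cells. The median of members rested in part on MK801 library 1. Without it, the median was 0.08, with 46 members higher, and on the TPM scale with all libraries it was -0.06, with 37 higher and 41 lower, against -0.35 for all genes. With genes under 5 FPKM left out it was 0.35 against 0.23 for all genes, a gap of 0.12 in place of 0.33.

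By coding GC, the medians for MK801 against core were -0.33, 0.23 and 0.77 in the low, middle and high ranges of 26 members each. The sizes rested in part on MK801 library 1, without which the medians were -0.25, 0.02 and 0.31. All 26 high-GC members were higher with and without that library (24 of 26 on the TPM scale), whereas of the middle range 21 were higher with it and 14 without. Other protein-coding genes in the same ranges had medians of -0.47, -0.01 and 0.42. With the GC trend removed, the median over members was 0.27, against 0.01 over all genes. The stalk proteins, which recruit elongation factors, were among the high-GC members. RPLP0 measured 606, 729 and 514 FPKM in the core, 896, 1494 and 807 in the invasive and 2108, 959 and 549 in the MK801 libraries. Its log2 difference was 0.76 ± 0.47 (SE), with adjusted p = 0.286 in limma, and those of RPLP1 and RPLP2 were 0.59 ± 0.41 and 0.92 ± 0.43. RPSA, a small subunit protein also described as a laminin receptor, measured 564, 685 and 498 FPKM in the core, 843, 1111 and 750.3 in the invasive and 1756, 1004 and 543 in the MK801 libraries, with a difference of 0.77 ± 0.41. For RPSA and the stalk genes MK801 library 1 was the highest of all 9 libraries and MK801 library 3 lay within the core range.

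MK801 devices, compared with invasive cells, had higher means for 69 of 78 members, 41 of 47 large and 28 of 31 small subunit members. The median log2 difference was 0.22 (0.25 for large, 0.20 for small), against -0.00 over all genes, of which 49.8% were higher. With all libraries, the SD of the differences was 0.17 among members, against 0.38 over all genes, which include genes near the filter of 1 FPKM. Without MK801 library 1 the members spread apart by coding GC. Their medians were then 0.28 in the low and -0.26 in the high range (0.29 and 0.14 with it). RPL31 showed the most positive difference among members (log2 difference 0.69 ± 0.27 (SE), adjusted p = 0.531 in limma), and its MK801 values of 86.5 to 136 FPKM lay above its invasive values of 59.0 to 70.4 FPKM. RPL37, a zinc-binding protein of the large subunit, measured 70.9, 101 and 66.7 FPKM in the core, 55.9, 61.0 and 51.3 in the invasive and 95.8, 64.7 and 76.2 in the MK801 libraries (log2 difference 0.47 ± 0.25 (SE), adjusted p = 0.724 in limma). RPS6, the small subunit protein that S6 kinases phosphorylate downstream of mTORC1, measured 425, 611 and 430.3 FPKM in the core, 356, 279.6 and 342 in the invasive and 409, 470.3 and 451 in the MK801 libraries. MK801 values of RPS6 lay above all invasive values and within or just below the core range (log2 difference 0.45 ± 0.26 (SE), adjusted p = 0.777 in limma). The most negative difference among members was -0.27 ± 0.41 (SE) for RPL39L, smaller than its standard error.

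No member passed the test for MK801 against invasive in limma, with all 9 libraries (0% of all genes) or with both groups alone (0% of all genes). At an unadjusted p under 0.05 in limma there was 1 of 78 members, RPL31, against 978 of 11845 genes, and limma-voom called 0. Without overlap between the groups, 12 members were higher (15.4%) against 5.22% of all genes, and 0 were lower against 5.63%. They included RPL23, RPL31, RPL22, RPL6, RPS6, RPL37, RPS12, RPL39, RPL14, RPS23 and RPL35A, and 7 were of low and 5 of middle coding GC. The count of 69 rested on MK801 library 1. Without it, 41 of 78 members were higher and the median was 0.02, against 0.03 over all genes. The low-GC members kept 23 of 26 higher (24 with all libraries) and a median of 0.28 (0.29 with all), whereas 3 of 26 high-GC members were higher (21 with all) and their median went from 0.14 to -0.26. Without invasive library 2, 73 members were higher, with a median of 0.33. On the TPM scale 68 were higher, with a median of 0.20, and with the GC trend removed 70 were higher, with a median of 0.23.

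Other members kept steady relations. RPL3 measured 422, 585 and 384 FPKM in the core, 471, 555 and 386 in the invasive and 800.2, 558 and 429 in the MK801 libraries, with overlapping groups and a log2 difference of 0.03 ± 0.32 (SE) between invasive and core. RPL37A followed the median member most closely, with an SD of 0.05 between libraries on the log2 scale after the median member of each library was subtracted, and RPL27A, RPS3A and RPL3 came next, each at 0.07. The same SD was 1.31 for RPS24, 0.99 for RPL7 and 0.85 for RPS27L, while the 3 most variable of the large subunit were RPL7, RPL36A and RPL26. RPS27 measured 587, 809 and 551 FPKM in the core, 578, 637 and 501 in the invasive and 788, 603 and 584 in the MK801 libraries, with differences of -0.17 ± 0.28, 0.03 ± 0.28 and 0.20 ± 0.28 (SE) in the comparisons of invasive with core, MK801 with core and MK801 with invasive. RPS27L, its paralog, stood at 9.58 ± 0.95 FPKM in core and 3.80 ± 0.80 in invasive libraries (SD, n = 3). RPL10, which joins the large subunit late in its maturation, measured 414, 509.7 and 321 FPKM in the core, 507, 827 and 449 in the invasive and 844, 537 and 379 in the MK801 libraries, and RPL41 measured 877, 1048 and 732 FPKM in the core, 894, 1381 and 906 in the invasive and 1593, 951 and 783 in the MK801 libraries, both with overlapping groups. Across the 9 libraries, 41 of 78 members had a Pearson correlation above 0.9 with the library's median member, and 19 had one below 0, of which 15 were of low and 4 of middle coding GC, among them RPL23, RPS7 and RPL11. These correlations describe 9 libraries that share the scaling of FPKM.

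Of the ribosomal protein genes outside the naming rule, 7 were tested and 0 passed in any comparison, with 3 higher and 4 lower in invasive than in core and 7 of 7 higher in MK801 than in invasive libraries. FAU, which encodes the small subunit protein eS30 fused to a ubiquitin-like domain, measured 172 ± 31.99 FPKM in the core, 283 ± 71.8 in the invasive and 315 ± 141 in the MK801 libraries. RPL22L1, a paralog of RPL22, measured 17.1 ± 1.24, 7.27 ± 3.74 and 9.51 ± 1.42 FPKM in that order (SD, n = 3).

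The other genes with a known TOP start are translation factors, proteins such as NPM1 and TPT1, and the hosts of small nucleolar RNAs. Of 29 tested, 9 were higher and 20 lower in invasive than in core cells (median -0.47), 11 higher and 18 lower in MK801 than in core (median -0.19), and 25 higher and 4 lower in MK801 than in invasive libraries (median 0.28), with 0 called in each. In the last comparison 11 of 29 were higher without overlap, against 5.22% of all genes, and without MK801 library 1 the count was 19 of 29 higher and the median 0.37. GAS5, a host of small nucleolar RNAs, was 152 ± 37.2 FPKM in the core, 71.9 ± 6.22 in the invasive and 131 ± 16.9 in the MK801 libraries, and EIF4B, an initiation factor, 114 ± 17.9, 57.0 ± 2.21 and 99.7 ± 23.4 FPKM (SD, n = 3). EEF1A1, which brings aminoacyl-tRNA to the ribosome, was 2171 ± 321, 1553 ± 51.7 and 2148 ± 210 FPKM in the same order.

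Genes that build or serve the ribosome did not share 1 direction, and none was called in the 9-library limma fit of any comparison. Of 98 tested biogenesis genes, 43 were higher in invasive than in core (median -0.12), 50 in MK801 than in core (median 0.02) and 56 in MK801 than in invasive libraries (median 0.06). BOP1, a factor of large subunit maturation, was 15.02 ± 3.86 FPKM in core and 48.2 ± 14.3 in invasive libraries (adjusted p = 0.103 in limma), and NPM1, the nucleolar phosphoprotein, was 154 ± 23.3 and 65.7 ± 9.72 FPKM (adjusted p = 0.098). Of 20 genes for chaperones and import of ribosomal proteins, 7, 7 and 13 were higher in the 3 comparisons in that order, with medians of -0.28, -0.14 and 0.06. Of 40 initiation factors, 19, 21 and 27 were higher (medians -0.11, 0.07 and 0.07), and of 15 elongation and termination genes 8, 8 and 7 (medians 0.19, 0.07 and -0.02). Of 23 genes of TOP and mTORC1 control, 11, 11 and 12 were higher (medians -0.07, -0.02 and 0.01). TSC2, an inhibitor upstream of mTORC1, had a log2 difference of 1.22 ± 0.28 (SE) between invasive and core, with an adjusted p of 0.087 in limma. Of 76 mitochondrial ribosomal protein genes, which serve the separate ribosome of mitochondria, 50, 49 and 29 were higher, with medians of 0.26, 0.26 and -0.06. In MK801 against invasive libraries, 29 of 76 mitochondrial genes were thus higher, where 69 of 78 cytoplasmic members were. Without MK801 library 1, 41 of 78 cytoplasmic members were higher, and the mitochondrial count without it was not taken. The difference between the lists was not tested.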

How the data were processed

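RNA was poly-A selected and sequenced from 9 libraries of GBM43 cells, 3 each of core, invasive and MK801 devices, grouped by their labels. The deposited values are FPKM per gene, made by the authors with the gene lengths in the file. Per the submitters' processing notes, the tools included HISAT2 2.0.5 and featureCounts 1.5.0-p3, with the build GRCh38. The use of strand is not given in the sources used here, so overlapping and antisense genes are uncertain. Multiplying FPKM by length gave whole fragments, after division by the smallest step of each library, for 100% of values above 0 (tolerance 0.01 fragments). The library total the authors divided by was 1.10 to 1.23 times the sum of recovered fragments for core samples. For invasive samples it was 0.788 to 1.06 times, and for MK801 samples 0.769, 0.937 and 1.19 times, so the scale of FPKM differences from core moves with the group; the TPM scale removes this. There were 0 unmapped value columns. These depths make counting error small at the levels of most members.

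FPKM was analysed as log2(FPKM + 1) for genes at 1 FPKM or more in at least 3 libraries. Limma 3.58.1 in R 4.3.3 (empirical Bayes with trend, 6 residual degrees of freedom) modelled all 9 libraries with a mean for each group and used Benjamini-Hochberg adjustment over 11845 genes and a threshold of 0.05, and was tested on simulated data. With 3 libraries a group the smallest p of an exact permutation test is 0.1, and none was run. Coding GC, transcript lengths and overlaps came from GENCODE release 29. The GC trend removed by loess (span 0.3) was over the GC content of the whole main transcript, and none was removed over coding GC.

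Members, gene lists and tests were chosen with earlier results of these data known, so lists get counts and medians, and no test. Genes were named as the 5 highest and 5 lowest members, the 3 most positive and 3 most negative per comparison, the 3 most variable per subunit, 4 paralog pairs, stalk and reference members, up to 3 genes of smallest p per list, and the 5 genes most like the median member (chromosome Y left out). Some genes that this rule names are not reported here. Marker lists also covered endothelial cells, leukocytes and neurons or oligodendrocytes, whose summed levels over libraries were 1.34 to 5.32, 1.89 to 6.01 and 1.85 to 5.93 FPKM. Alternatives were a pseudocount of 0.1, no filter or one of 5 FPKM, TPM scale, median of ratios, voom, groups alone, a replicate block, GC removal and leaving out libraries. Groups alone with GC removal, leaving out both libraries with the fewest genes, and leaving out libraries of the third group were chosen after seeing the data.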

Additional observations from a re-analysis of the deposited data

How the results depend on the processing

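The number of members called was 0 in each comparison and stayed 0 with a pseudocount of 0.1, other filters, TPM scale, median of ratios and voom. For invasive against core it was 19 with both groups alone (24.4% of members against 52.2% of all genes). With GC removal in addition it was 9 (11.5% against 17.7%), and with single libraries left out 0 to 16. The 16 of 78 members came without MK801 replicate 1 or 3, where 4675 and 4888 of 11845 genes were called. For MK801 against core it was 0 to 36, with 36 without MK801 replicate 3 (46.2% of members against 50.2% of all genes). The cause was not tested. On the TPM scale the median member difference turned to -0.27 for invasive and -0.064 for MK801 against core, where all genes moved to -0.37 and -0.35. The invasive minus core median also passed 0 without invasive replicate 2 (-0.04) and without core replicate 3 (-0.00). The mean share of members was 9.46% of fragments for core, 9.03% for invasive and 10.7% for MK801 libraries, and 14.2%, 12.7% and 14.8% of nuclear protein-coding FPKM in core, invasive and MK801 libraries; these count over another total. The gap between large and small subunit medians stayed within 1 SD of libraries in each alternative.

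Pairing by replicate number was not established, and the labels tie no number to a device. Correlations of same-numbered deviations were -0.007, 0.24 and 0.44 for core with invasive libraries. Over all groups they were -0.15 to 0.61, with those of number 3 at 0.44 to 0.61. Libraries of different groups and different numbers gave -0.55 to 0.53. Core and invasive columns do share device-like numbers in their names. A replicate block called 10 members and 2525 genes for invasive against core and 0 members in the other comparisons.

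Of 280 alternative values for 14 single-gene differences, 254 kept direction and side of the threshold, 25 newly passed it and 1 changed sign, RPL39L for MK801 against invasive, which ran from -0.74 to 0.17 with single libraries left out and was above 0 without MK801 replicate 3. Low members are limited by depth: 3 fragments are worth 0.0568 to 0.261 FPKM of RPL10L.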

Other observations

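Ribosomal protein pseudogenes, 1132 in the table of which 76 were tested, took 2.12 to 3.09% of summed FPKM in the 9 libraries, or 21.1 to 23.6% of the members' summed FPKM. Fragments from members may be counted in them, since many are near-identical copies. Of the 76, 38 were higher in invasive than in core libraries (median log2 difference 0.01), 43 in MK801 than in core (0.19) and 60 in MK801 than in invasive libraries (0.32), with 0 called by limma in each. RPL7P1 and RPL7P9, named after RPL7, were lower in invasive cells as RPL7 was. RPL7P1 was 143 ± 12.2 FPKM in the core, 49.7 ± 10.5 in the invasive and 72.2 ± 33.1 in the MK801 libraries, and RPL7P9 112 ± 12.3, 49.0 ± 6.18 and 74.5 ± 21.5 FPKM (SD, n = 3). RPSAP52, a gene of this list known as a noncoding RNA, was 15.8 ± 4.47 FPKM in the core, 7.58 ± 0.92 in the invasive and 15.1 ± 1.29 in the MK801 libraries (adjusted p = 0.096 for invasive against core and 0.283 for MK801 against invasive in limma).

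The 5 other protein-coding genes whose levels ran most closely with the median ribosomal protein gene over the 9 libraries were ARL16, FUNDC2, SAP30BP, COX7A2L and NUPR1, with Pearson correlations of 0.97 to 0.98. COX7A2L, an assembly factor of respiratory supercomplexes, was 11.1 ± 2.28 FPKM in the core, 13.5 ± 1.74 in the invasive and 18.6 ± 9.13 in the MK801 libraries, and NUPR1, a stress-induced nuclear protein, 20.6 ± 2.70, 22.2 ± 5.90 and 31.5 ± 13.5 FPKM (SD, n = 3). The genes were picked for this likeness, and the points share the scaling of FPKM.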
